A study of Mus musculus with 2 samples.

Results

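The blood-brain barrier set held 34 genes of brain endothelial cells and of the mural cells (pericytes and smooth muscle cells) that wrap them. It was drawn by symbol from a list of names chosen with earlier results of these data known. All 34 were found among the 55536 genes of the tables, of which 22028 are protein-coding. The set had 6 junction and adhesion genes, 9 receptor and surface genes, 8 transport genes, 3 transcription factor genes, 5 pericyte genes and 3 smooth muscle genes. The first 4 groups are called endothelial here (26 genes), and the last pair mural (8 genes).

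The tissue was left cerebral cortex from 2 male mice aged 36 days. Both were B6CASTF1/J animals, F1 hybrids between the B6 and the Cast strain, so autosomal genes were present as 1 allele of each strain, while the reads were assigned to the mm10 reference. There was 1 group and no treatment, genotype contrast or control. Each mouse gave 1 library from 300 ng of total RNA with reduced ribosomal RNA and ERCC spike-in RNAs. The animals carried separate biosample descriptions but shared a donor identifier in the labels. With 1 library a mouse, no test between conditions could be made.

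Capillaries of the brain are lined by endothelial cells joined by tight junctions, which leave little passage between cells. Nutrients cross through dedicated carriers, and drugs and other lipophilic compounds are pumped back into the blood by ABC transporters. Pericytes share a basement membrane with the capillary endothelium and help to maintain the barrier, and smooth muscle cells surround arterioles.

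The libraries held 29915463 expected counts (replicate 1) and 27988085 (replicate 2), the authors' estimates of the reads belonging to each gene. Levels are TPM, a length-corrected share of all RNA, given for each mouse or as the mean with its SD. All 34 members reached a TPM of 1 in each mouse, against 58.6% of protein-coding genes, and all 34 reached a mean count of 100, the minimum set for ratios between the mice. Because the members were chosen with earlier results known, their detection is not an independent result. Counts whole to within 0.005 in both mice were found for 31 of 34 members, against 84.9% of expressed protein-coding genes. The other 3, Ly6c1, Slco1a4 and Abcb1a, have near copies that shared reads, and their values are uncertain to that extent. In bulk tissue, fewer cells of a type and less RNA per cell cannot be told apart.

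The isoforms of 4 members carried sequence that separates proteins with different known behaviour, and these stretches are shown because the isoform results below turn on them. They are coding bases of GENCODE M21 transcripts on mm10, written 5′ to 3′ along the transcript. Capitals mark bases that the other isoform of the pair lacks, and coordinates are those of the capitals.

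Flt1 encodes VEGF receptor 1. Its full-length transcript Flt1-202 (1333 codons) continues into the membrane-spanning and kinase part, and Flt1-203 (688 codons) reads into an intron and ends, which gives the secreted, VEGF-trapping form. The first 60 specific bases of Flt1-202 lie on the minus strand at chr5:147634464-147634523, and the 92 specific bases of Flt1-203 at chr5:147639133-147639224.
Flt1-202: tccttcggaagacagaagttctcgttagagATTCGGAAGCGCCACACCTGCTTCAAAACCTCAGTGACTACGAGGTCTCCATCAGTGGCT
Flt1-203: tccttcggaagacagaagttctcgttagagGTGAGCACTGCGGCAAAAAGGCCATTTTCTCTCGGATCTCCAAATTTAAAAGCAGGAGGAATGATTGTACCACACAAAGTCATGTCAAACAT

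Tjp1 encodes ZO-1, the scaffold that ties tight junction proteins to actin. Tjp1-202 contains a 240-base exon at chr7:65314093-65314332 on the minus strand that Tjp1-201 skips. It encodes the alpha motif, which endothelial ZO-1 is known to lack more often than epithelial ZO-1.
Tjp1-202: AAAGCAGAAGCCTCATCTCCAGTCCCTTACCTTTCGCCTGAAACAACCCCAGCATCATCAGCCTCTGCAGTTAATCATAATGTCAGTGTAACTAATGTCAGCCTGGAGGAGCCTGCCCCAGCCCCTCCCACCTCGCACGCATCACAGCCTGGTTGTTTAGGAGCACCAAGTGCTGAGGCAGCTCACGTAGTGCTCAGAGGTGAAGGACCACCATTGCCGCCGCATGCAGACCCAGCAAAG

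Myh11 encodes the smooth muscle myosin heavy chain. Myh11-204 carries a 21-base insert in the motor domain at chr16:14248580-14248600 on the minus strand, known from the faster-cycling myosin of phasic muscle, and Myh11-201 joins the flanking bases directly.
Myh11-204: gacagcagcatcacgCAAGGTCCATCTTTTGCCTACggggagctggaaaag
Myh11-201: gacagcagcatcacgggggagctggaaaag

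Eng encodes endoglin, a co-receptor for ligands of the TGF-beta family. Eng-201 (653 codons) has the long cytoplasmic tail and Eng-202 (641 codons) the short tail made by intron retention. The first 60 specific bases of Eng-201 lie on the plus strand at chr2:32681437-32681496 and the 86 specific bases of Eng-202 at chr2:32681298-32681383.
Eng-201: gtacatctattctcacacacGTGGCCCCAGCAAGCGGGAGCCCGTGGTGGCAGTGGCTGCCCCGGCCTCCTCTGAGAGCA
Eng-202: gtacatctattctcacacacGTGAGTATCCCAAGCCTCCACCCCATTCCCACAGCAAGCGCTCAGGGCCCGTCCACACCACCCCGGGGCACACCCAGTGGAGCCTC

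Members spanned from a TPM of 2.12 (Abcc9) to 255 (Bsg). Their median was 8.67 ± 0.354 (SD, n = 2), below the median of 15.9 over the expressed protein-coding genes, and 13 of 34 lay above that median. Endothelial members had a median TPM of 9.51 ± 0.902 (SD, n = 2) and mural members 6.05 ± 0.117 (SD, n = 2). Transport genes led with a median TPM of 24.1 ± 1.42, and the transcription factors were lowest at 3.85 ± 0.863 (SD, n = 2 for both).

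**Figure D1:**
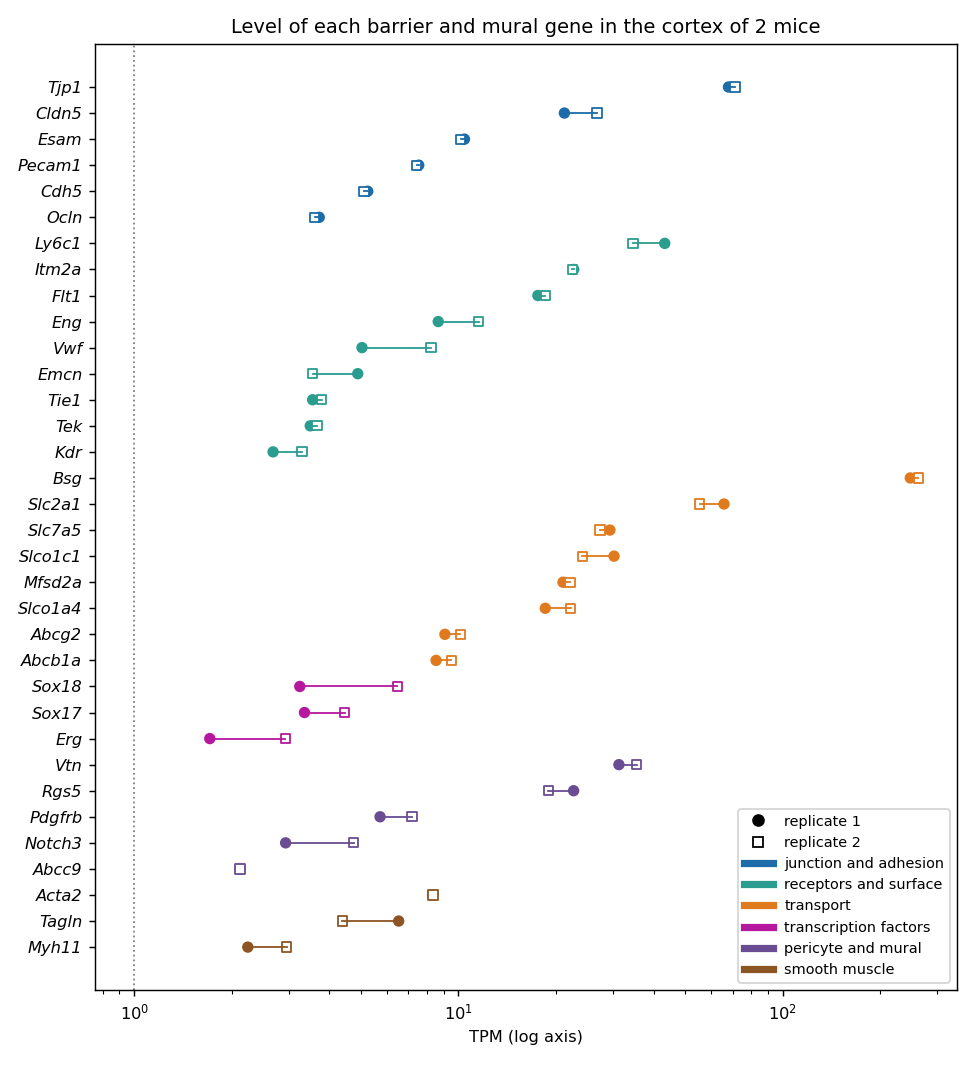
TPM (log axis) of each of the 34 members in replicate 1 (filled circles) and replicate 2 (open squares), coloured by role and ordered by mean level within a role. The dotted line marks a TPM of 1, above which all 34 members lie in both mice, and Bsg stands highest at a mean of 255.

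Among the junction genes, Tjp1 had a TPM of 68.0 in replicate 1 and 71.2 in replicate 2. Cldn5, the main claudin sealing the space between brain endothelial cells, was at a TPM of 21.2 and 26.8, and Ocln (occludin, a second membrane protein of the tight junction) at 3.72 and 3.60. On the log2(TPM + 1) scale the level of Cldn5 exceeded that of Ocln by 2.41 ± 0.25 (SD, n = 2), and the mice did not overlap. Tjp1 and Ocln are made by many cell types, whereas Cldn5 in brain is largely endothelial. Esam, an endothelial adhesion molecule of the immunoglobulin family, had a TPM of 10.4 and 10.2. Cdh5 (VE-cadherin, the adherens junction cadherin) stood at 5.25 and 5.11, and Pecam1 (CD31, an adhesion receptor at endothelial contacts) at 7.54 and 7.44. These last 3 genes lay closer in the 2 mice than Cldn5, whose mean TPM was 24.0 ± 3.92 (SD, n = 2).

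The VEGF receptors were unequal in level. Flt1 had a TPM of 17.6 and 18.5, while Kdr (VEGF receptor 2, the main signalling receptor) had 2.68 and 3.29. Kdr was below Flt1 by 2.26 ± 0.11 on the log2(TPM + 1) scale (SD, n = 2), in both mice. By contrast Tek (the angiopoietin receptor Tie2), at a TPM of 3.49 and 3.66, and Tie1 (its partner without a well-defined ligand of its own), at 3.55 and 3.79, differed by -0.03 ± 0.01 (Tek minus Tie1, SD, n = 2). Eng had a TPM of 8.66 and 11.5.

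Ly6c1, a GPI-anchored surface antigen abundant on brain endothelium, had a TPM of 43.3 and 34.5, the highest of the surface group. Its near copy Ly6c2 had 2.40 and 2.49, a difference in level of 3.53 ± 0.25 on the log2(TPM + 1) scale (SD, n = 2). Itm2a, a small type II membrane protein enriched in brain endothelium, was at 22.7 and 22.4, nearly equal in the mice. Emcn (endomucin, a sialoglycoprotein of capillaries and veins) had a TPM of 4.89 and 3.55. Vwf (von Willebrand factor, the platelet-binding protein stored in endothelial granules) had 5.04 and 8.23. Emcn and Vwf differed between the mice in opposite directions, and both were among the members whose TPM and counts disagreed, as described further on.

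Transport genes included the most abundant member. Bsg (basigin, the chaperone of monocarboxylate carriers, also made by neurons and glia) had a TPM of 247 and 262. Slc16a1 (the carrier MCT1, which basigin escorts to the membrane) had 9.02 and 8.46, so that Bsg was higher by 4.71 ± 0.12 on the log2(TPM + 1) scale (SD, n = 2). Slc2a1 (the glucose carrier GLUT1 of endothelium and astrocytes) was at 65.9 and 55.4. Slc2a3, the neuronal glucose carrier GLUT3, was at 60.2 and 61.0. Slc2a1 was the higher of the 2 carriers in replicate 1 and the lower in replicate 2, so the order of their levels was not resolved, and in the read-based table Slc2a1 was higher in both mice by a mean of 0.45.

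Amino acid, lipid and thyroid hormone carriers followed. Slc7a5 (LAT1, the large neutral amino acid carrier) had a TPM of 29.3 and 27.3, and Slc3a2 (CD98, the heavy chain it pairs with) 67.5 and 66.5. Slc7a5 was lower by 1.21 ± 0.06 on the log2(TPM + 1) scale (SD, n = 2), and by 1.80 in the read-based table. Mfsd2a, the carrier of lysophospholipid-bound omega-3 fatty acids that also limits transcytosis, was at 21 and 22.1. Slco1c1 (OATP1C1, a thyroxine carrier of endothelium and astrocytes) had 30.2 and 24.1, and Slco1a4 (OATP1A4, an organic anion carrier) 18.5 and 22.2. Slco1a4 was below Slco1c1 in both mice by a mean of 0.40 ± 0.40 (SD, n = 2), a difference no larger than its own spread, and by 0.67 in the read-based table.

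The drug pumps had similar levels in the alignment-based table. Abcb1a (P-glycoprotein, the main efflux pump of rodent brain capillaries) had a TPM of 8.53 and 9.51, and Abcg2 (breast cancer resistance protein, the other major pump) 9.08 and 10.1. Abcb1a minus Abcg2 was -0.08 in each mouse on the log2(TPM + 1) scale, but -0.61 in the read-based table. Abcb1b, the second rodent P-glycoprotein gene, was at a TPM of 1.79 and 1.44, below Abcb1a by a difference of 1.94 ± 0.24 (SD, n = 2).

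The 3 transcription factors are known regulators of endothelial identity. Sox17, which acts in arterial specification, had a TPM of 3.35 and 4.46. Sox18, its SoxF relative with roles in vascular and lymphatic development, had 3.24 and 6.47. Erg, the ETS factor that maintains endothelial genes, had 1.71 and 2.92. All 3 were higher in replicate 2. The order of Sox17 and Sox18 was not resolved: their difference in level was 0.04 in replicate 1 and -0.45 in replicate 2 (Sox17 minus Sox18, log2(TPM + 1)), with a mean of 0.10 in the read-based table.

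Of the pericyte genes, Vtn (vitronectin, an extracellular matrix protein made by brain pericytes) led with a TPM of 31.2 and 35.5. Rgs5, a regulator of G protein signalling that marks pericytes, had 22.6 and 18.9. Pdgfrb, the receptor through which endothelial PDGF-B recruits pericytes, had 5.73 and 7.19. Its relative Pdgfra, which marks oligodendrocyte precursors and fibroblasts, was higher, so that Pdgfrb minus Pdgfra was -1.27 ± 0.0039 on the log2(TPM + 1) scale (SD, n = 2). Notch3, the mural Notch receptor, was at 2.93 and 4.75, below Notch1 by 1.21 ± 0.04 (SD, n = 2). Abcc9 (SUR2, the sulfonylurea receptor of pericyte potassium channels) had 2.12 in both mice, and its pore partner Kcnj8 had 0.90 and 0.97, a difference of 0.69 ± 0.04 (SD, n = 2).

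Smooth muscle genes were low. Acta2 (smooth muscle actin) had a TPM of 8.32 and 8.34, Tagln (transgelin, an actin-binding protein) 6.54 and 4.38, and Myh11 2.24 and 2.95. Acta2 was above Tagln in both mice by a mean of 0.55 ± 0.35 on the log2(TPM + 1) scale (SD, n = 2), and by 1.44 in the read-based table. Exons of Tagln overlap the antisense gene Gm48529 (37 and 53 counts) and Pcsk7 on the opposite strand. Notch3 overlaps antisense Gm17276 (35 and 59 counts) and Eng overlaps Fpgs (78 and 105 counts). The assignment of reads between these genes depends on how strand was used in the counting, which is not given in the sources used here. Counts of Tagln, Notch3, Eng and these overlapping genes were whole in both mice, unlike those of Ly6c1, Slco1a4 and Abcb1a. Over 15 pairs of related genes, the first was higher in both mice in 6.

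Differences between the mice were measured as the log2 ratio of scaled counts, replicate 2 over replicate 1. Scaling used TMM (trimmed mean of M-values), and each ratio has a 95% exact binomial interval that covers counting error only. Over 11728 protein-coding genes at or above the count minimum, the median ratio was -0.025, and the 95th percentile of its size was 0.385. Members had a median ratio of 0.023, with 20 above 0 and 14 below. Past a log2 ratio of 0.5 (1.41-fold) lay 2 of 34 members on the higher side, against 1.19% of all genes tested, and 0 on the lower side, against 1.07%. The share on the higher side depended on depth, at 0.318% for a minimum mean count of 500 and 3.51% for 20. It is therefore not matched to the counts of the 2 members. Counting intervals lay above 0 for 10 members (14.0% of all genes) and below 0 for 5 (23.8% of all genes). With 1 library a mouse, these ratios compare the libraries and have no replicate check.

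**Figure D2:**
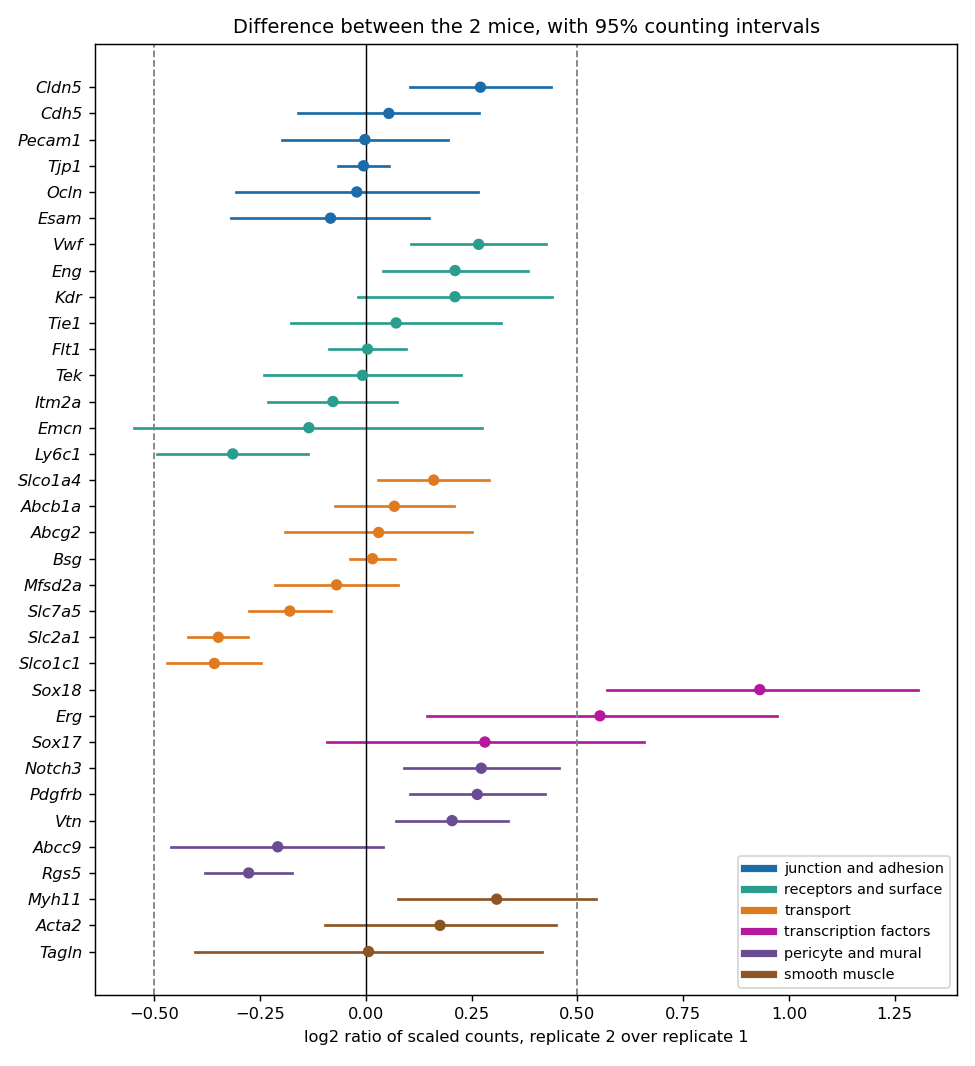
Log2 ratio of TMM-scaled counts, replicate 2 over replicate 1, for each member, with bars for the 95% exact binomial interval (counting error only), coloured by role. Dashed lines mark a ratio of 0.5 in either direction, and Sox18 and Erg are the 2 members beyond them.

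Sox18 (chr2:181669836-181671640) had 97 counts in the first mouse and 181 in the other, which gave a log2 ratio of 0.93 with a counting interval of 0.57 to 1.31, or 1.91-fold. Erg (chr16:95359169-95586593) had 85 and 122 counts, a ratio of 0.55 with an interval of 0.14 to 0.97. Sox17 had 112 and 133 counts and a ratio of 0.28, and its interval of -0.09 to 0.66 included 0. These were among the members with the fewest counts, so their intervals were wide, and that of Erg reached below the threshold of 0.5. Read-based counts gave 0.98 for Sox18, 0.53 for Erg and 0.16 for Sox17. At a minimum mean count of 500 none of the 3 could be assessed, and the count of members past the threshold was 0.

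The other endothelial groups had members on both sides of 0. Junction genes had a median ratio of -0.0037, and Cldn5 alone among them had an interval above 0 (550 and 648 counts, ratio 0.27). Receptor and surface genes had a median of 0.0041. In that group the intervals of Vwf (601 and 706 counts, ratio 0.27) and Eng (530 and 599, 0.21) lay above 0, and that of Ly6c1 (586 and 460, -0.31) lay below. Flt1 was almost equal in the mice at 1958 and 1917 counts, as was Tek at 310 and 301. The higher and lower members of the surface group thus stood side by side.

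Transport genes had a median ratio of -0.027 and held 3 of the 5 members with intervals below 0. Slc2a1 had 3696 and 2834 counts, a ratio of -0.35 with an interval of -0.42 to -0.28. Slco1c1 had 1536 and 1170 counts, a ratio of -0.36 with an interval of -0.47 to -0.25. Slc7a5 had 1877 and 1618 counts and a ratio of -0.18. Slco1a4 went the other way with 910 and 993 counts (0.16), and Bsg, the deepest member at 5660 and 5587 counts, was at 0.016 with an interval that included 0.

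Mural members had a median ratio of 0.19, with 6 of 8 above 0. Intervals lay above 0 for Notch3 (456 and 538 counts, ratio 0.27), Pdgfrb (599 and 702, 0.26), Vtn (891 and 1002, 0.20) and Myh11 (276 and 334, 0.31). Rgs5 was the mural member with an interval below 0, at 1725 and 1390 counts and a ratio of -0.28. Abcc9 (290 and 245 counts) was at -0.21 with an interval reaching 0.04. Pericyte genes thus differed between the mice in both directions, all by less than the threshold of 0.5.

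The direction of such small ratios depended on the scaling. Against the 20 above and 14 below 0 with TMM, DESeq2 size factors gave 16 and 18, and library totals 24 and 10. The DESeq2 factors came out as 1 and 1, so that setting compared unscaled counts. Spike-in totals moved the median of all genes to 0.37 and put all 34 members above 0, with 13 past the threshold, and 22.2% of all genes then passed it upwards and 0.247% downwards. Each scaling shifts every ratio by the same amount, so the median of the members stood 0.048 above that of all genes by construction in all 4. Sox18 and Erg were past 0.5 under all 4.

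Markers of other cell types moved between the same libraries. All 7 oligodendrocyte genes had intervals below 0, with a median ratio of -0.36 and a summed TPM of 1463 in replicate 1 and 1215 in replicate 2, from Mbp (537 on average) down to Mog (24.5). Astrocyte genes, which bear on Slc2a1 and Slco1c1, had a median of -0.10 with 7 of 8 below 0 and a summed TPM of 1574 and 1504, led by Slc1a2 (806) and with Aldh1l1 lowest (25.8). Neuron genes had a median of -0.10 with 6 of 7 below 0 and sums of 2991 and 2920, between Snap25 (1250.4) and Gad2 (51.8). Microglial genes had a median of -0.010, with 5 of 7 below 0 and sums of 168 and 171, with Tmem119 lowest (11).

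Vessel-associated cells other than the members' own showed mixed values. Genes of fibroblasts, cells found around larger vessels and in the meninges, had a median ratio of 0.093 with 4 of 7 above 0. Their summed TPM was 57.6 and 67.8, with single genes between Pdgfra (17.0) and Lum (0.870). Pdgfra, which also marks oligodendrocyte precursors, held 15.3 and 18.8 of these sums. Erythroid genes summed to 570 and 561 TPM, from Hba-a1 (188) down to Alas2 (2.38), with 4 of 4 at the count minimum below 0, so red cell RNA was present in both samples. Choroid plexus genes passed a TPM of 1 in both mice for 1 of 6, Ttr, at 184 and 107 counts (ratio -0.74), while Otx2 was at a mean TPM of 0.045. The part of these cell types in the ratios of the members was not tested.

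TPM and counts did not give the same difference for every member. The effective length (the length a gene's reads are divided by, averaged over its isoforms) changed between the mice by more than the 95th percentile of expressed genes for 4 members, Emcn, Vwf, Notch3 and Tagln. Tagln had 103 and 101 counts, equal within counting error, but a TPM ratio of -0.49 on the log2(TPM + 1) scale. In replicate 1 its 369-base transcript Tagln-202 received 19.4 counts and thereby 55.7% of the gene's TPM, and in replicate 2 it received 3.86 counts and 17.8%. For Notch3, 11.4 counts given to the 645-base retained intron transcript Notch3-203 in replicate 2 made up 23.8% of its TPM, and that transcript had 0 counts in replicate 1, where up to 3 are compatible with a count of 0. The read-based table listed both short transcripts at 0 in both mice.

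In Vwf and Emcn the isoform shares also differed between the mice. The count ratio of Vwf was 0.27 and its TPM ratio 0.61. Its share on the 2686-base transcript Vwf-210 was 10.1% and 21.04% on 26.01 and 82.3 counts, that on the 2184-base Vwf-202 was 0% and 8.43% on 0 and 26.6 counts, and that on the 456-base Vwf-209 was 15.5% and 24.1% on 5.48 and 13.0 counts. The read-based table also gave Vwf a higher TPM in replicate 2 (5.30 and 8.70), with Vwf-209 at 0% and 0.223%. Emcn had a count ratio of -0.13 and a TPM ratio of -0.37, and its 723-base transcript Emcn-204 held 41.3% and 10.1% of TPM on 24.8 and 4.10 counts. For Tagln, Notch3 and Emcn, transcripts of 369 to 723 bases with at most 24.8 counts thus held 23.8% to 55.7% of the gene's TPM in 1 of the mice.

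**Figure D3:**
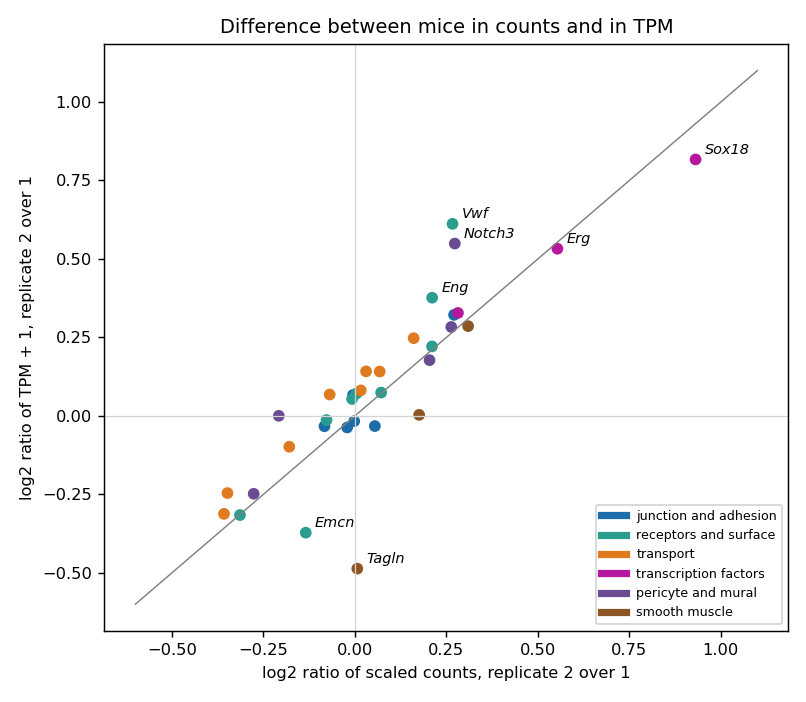
Log2 ratio between the mice (replicate 2 over replicate 1) of scaled counts (x axis) and of TPM + 1 (y axis) for each member, coloured by role, with the line of equality. Vwf and Notch3 lie above the line and Emcn and Tagln below it, while Sox18 and Erg lie near it.

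Isoform shares came from 2 deposited quantifications of the same reads, one from alignments and one directly from the reads. Cldn5, Itm2a and Sox18 have 1 annotated transcript each. Of the other 31 members, 22 had the same leading transcript in both tables and 9 had different ones, and 25 had the same leading transcript in both mice. The leading transcript held under 60% of the gene's TPM in 11 members.

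Flt1 gave close shares in both tables. Flt1-202, the full-length receptor, held 47.1% and 49.9% of the gene's TPM, and Flt1-203, the secreted form, 33.7% and 29.8%. Of the 2 together, the secreted form made up 39.6% ± 3.06 (SD, n = 2), and 39.9% in the read-based table. The stretches printed above for this gene are where the 2 transcripts part.

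For the other isoform pairs the tables disagreed more. Tjp1-201, without the 240-base exon, made up 41.8% ± 0.94 (SD, n = 2) of its pair with Tjp1-202 by alignment and 59.4% by the read-based table, so which form led was not resolved. Myh11-204, with the 21-base insert, made up 43.1% ± 8.76 (SD, n = 2) and 52.3%, on 134 and 121 alignment-based counts. Of its pair with Eng-201, the short-tail Eng-202 made up 14.8% ± 1.55 (SD, n = 2) and 54.9%. The leading form changed with the table in both mice for Tjp1. Within the Eng pair it changed in replicate 2, and in replicate 1 the read-based share of Eng-202 was 49.3%. Eng-205 (652 codons, against 653 for Eng-201) lies outside this pair. It held 22.4% of the gene's TPM by alignment and 27.6% in the read-based table. Its tail was not compared with those of the pair, so which tail form led for the whole gene was not resolved. For Myh11 the values of the tables overlapped, at 49.3% and 36.9% by alignment and 57.3% and 47.3% in the read-based table.

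Pecam1 isoforms differ by small exons of the cytoplasmic tail. Pecam1-203 lacks a 57-base exon of Pecam1-202 at chr11:106671742-106671798 (minus strand), shown because it holds one of the inhibitory tyrosine motifs of the tail.
Pecam1-202: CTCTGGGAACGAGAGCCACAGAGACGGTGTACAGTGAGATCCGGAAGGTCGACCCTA
The form without it made up 61.3% of the pair in replicate 1 and 45.2% in replicate 2, and the mean was 50.6% in the read-based table, where Pecam1-204 led at 33.96% of the gene. Neither form led in both mice.

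Slco1c1 and Slc2a1 had a large share on transcripts that are not expected to give the full protein. Slco1c1-202, annotated as a target of nonsense-mediated decay, held 58.8% and 63.8% of the gene's TPM, and 64.4% in the read-based table. A second decay target, Slco1c1-205, held 13.4% and 1.16%. The coding Slco1c1-201 (715 codons) held 13.5% and 17.4%, Slco1c1-206 (666 codons) 11.6% and 10.95%, and Slco1c1-203 (544 codons) 0% and 3.62%. For Slc2a1, the coding Slc2a1-201 (492 codons) held 71.2% and 66.0%, and the decay target Slc2a1-204 27.7% and 31.9%. The read-based table had 30.03% for Slc2a1-204 and 41.6% for Slc2a1-201. Bsg-205, with the shorter extracellular part, held 88.9% ± 5.32 (SD, n = 2), and Bsg-201, the form with an additional immunoglobulin domain known from the retina, made up 2.47% ± 1.12 of the 2 (SD, n = 2). The read-based table put Bsg-201 at 53.0% of the pair, so its share was not resolved.

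**Figure D4:**
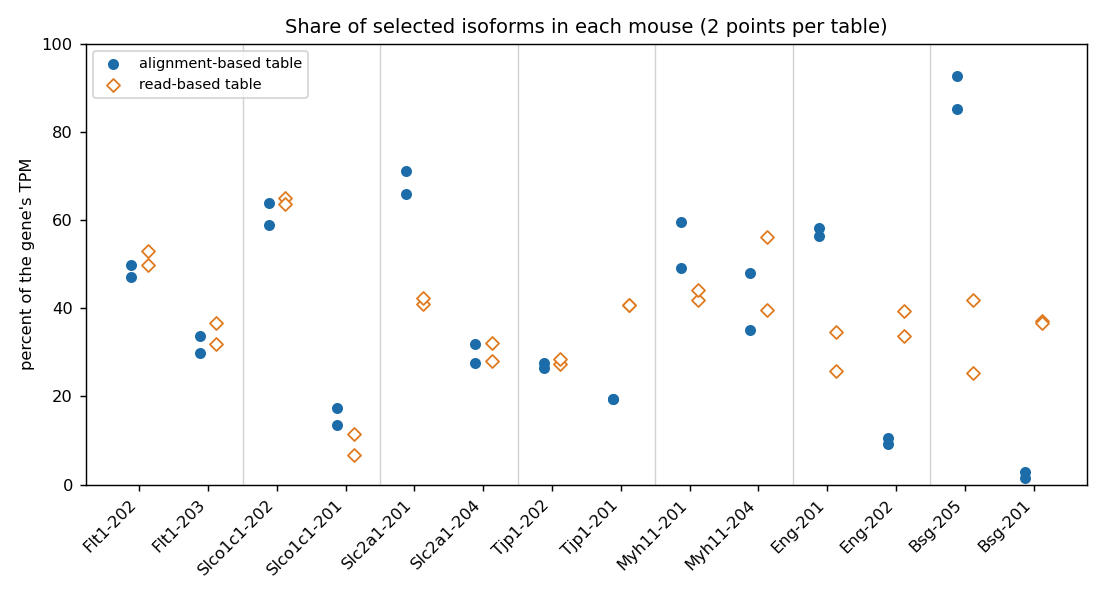
Percent of the gene's TPM on selected isoforms of 7 members (y axis) in each mouse, from the alignment-based table (filled circles) and the read-based table (open diamonds), with 2 points per table. The points of both tables lie together for Flt1-202, Flt1-203 and Slco1c1-202 and apart for Eng-202 and the 2 Bsg forms.

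The remaining split members are given by their leading form. Ocln-205 (521 codons) held 44.7% ± 13.5 and Slco1a4-203 55.0% ± 1.86, and Vwf-203, the full-length form of 2813 codons, 52.5% ± 13.3 (SD, n = 2 for each). All 3 also led in the read-based table, but in replicate 2 Ocln-202 was ahead of Ocln-205 by alignment (37.0% and 35.2%). Abcc9-203 (1546 codons) held 86.9% ± 3.76 (SD, n = 2). Sox17-201 led at 21.7% by alignment and Sox17-208 at 24.5% by the read-based table, and Acta2-201 (57.6%) and Acta2-202 (55.5%) changed places in the same way. Erg-208 held 63.8% in replicate 1 and 18.2% in replicate 2, while Erg-206 was listed at 0 in the alignment-based table and at 47.9% in the read-based one. Ly6c1-201 held 63.2% by alignment, and Ly6c1-202, with the same 131 codons, 64.9% by the read-based table. At 85 to 181 counts a library the shares of the transcription factors rest on few reads.

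Of 87 other barrier and vascular genes, 68 reached a TPM of 1 in each mouse, against 58.6% of protein-coding genes. The same 58.6% is the share to set beside each list below, and the lists were chosen with earlier results known. The count minimum was reached by 58 of the 87 genes. Past the threshold lay 1 gene on each side, against 1.19% (higher) and 1.07% (lower) of all genes tested. The 58 genes had a median ratio of 0.063, and 34 lay above 0 and 24 below.

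Other tight junction genes were detected for 7 of 12, from Cldn12 (19.2 TPM on average) down to Marveld3 (0.105), and 0 of 7 passed the threshold. Wnt signalling genes, through which neural cells induce barrier properties in endothelium, were detected for 15 of 17, between Ctnnb1 (220.0) and Sox7 (0.715). Fzd4, the Norrin and Wnt receptor of this pathway, was lower in replicate 2 at 573 and 350 counts (ratio -0.68, interval -0.87 to -0.48). VEGF and angiopoietin genes were detected for 9 of 11, between Vegfa (48.0) and Angpt2 (0.585). Nrp2, a co-receptor of VEGF and semaphorins that neurons also make, was higher at 1192 and 1928 counts (ratio 0.73, interval 0.62 to 0.83).

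All 11 PDGF and Notch genes were detected, between Hey1 (26.6) and Dll4 (1.22). Other transport genes were detected for 15 of 16, between the receptor Lrp1 (140.5) and Ager (0.290). Other pericyte genes were detected for 6 of 10, between Cspg4 (7.84, also in oligodendrocyte precursors) and Foxd1 (0.775), and other smooth muscle genes for 5 of 10, between Cald1 (9.68) and Cnn1 (0.305). None of the genes of these 4 lists that reached the count minimum passed the threshold of 0.5. Of all genes tested, 1.19% passed it upwards and 1.07% downwards, so lists this short could hold none at those shares.

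**Figure D5:**
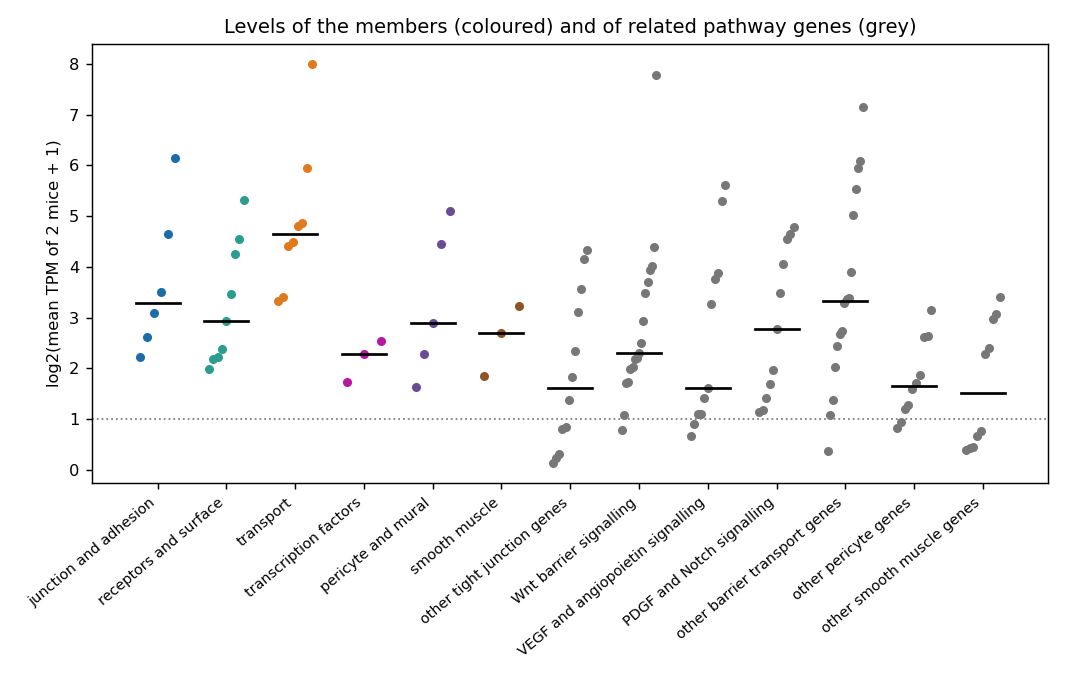
Log2(mean TPM of the 2 mice + 1) of each gene in the member groups (coloured) and in the 7 lists of related genes (grey), with a horizontal bar at the median of each list and a dotted line at a TPM of 1. All coloured points lie above the dotted line, and the transport members have the highest median.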

How the data were processed

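Total RNA of left cerebral cortex from 2 mice was measured in 1 library each. The authors deposited, per the file headers, alignment-based gene and transcript tables. These hold expected counts (estimated reads, not normalized) and TPM, and for a transcript its percent of the gene total, all deposited as such. A second deposited transcript table, quantified directly from the reads, holds estimated counts and TPM. Both used mm10 and release M21 of GENCODE according to the deposited listing. For the aligner, the quantifiers and the strand setting, no name is given in the sources used here. Expected counts divide reads shared by near copies, and TPM depends on the isoforms inferred.

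Expected counts were rounded and scaled by TMM in edgeR 4.0.16 (R 4.3.3). Log2 ratios used a prior count of 0.5 at a mean count of at least 100. Intervals are exact binomial (Clopper-Pearson) at 95%, cover counting error only and take the scale as fixed. Levels between genes used log2(TPM + 1). The TMM scaling and the log2 ratios were tested on simulated counts, while the intervals, levels and isoform shares were not. DESeq2 1.42.0 size factors, library and spike-in totals, other minimums, thresholds and pseudocounts, the read-based tables and each mouse left out were alternatives.

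The members, lists and pairs were chosen with earlier results of these data known. All members were named, with the highest and lowest gene of each other list, each gene past the threshold and every pair partner, except 1 gene that is not reported here. Sequences and coordinates came from GENCODE M21. Other steps ran in Python 3.11.15 (scipy 1.17.1, pandas 2.3.3, numpy 2.4.6), and figures in matplotlib 3.10.9. Labels describe separate animals, so the SD includes differences between animals and between preparations.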

Additional observations from a re-analysis of the deposited data

How the results depend on the processing

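The 34 detected members fell to 22 at a TPM of at least 5, and stayed at 34 in the read-based table. The count was also 34 at a TPM of at least 0.1, after rescaling to nuclear protein-coding genes and with either mouse left out (34 to 34). None of these last settings could have lowered it. The median level of endothelial members was 3.39 on the log2(TPM + 1) scale. It shifted to 4.14 in the read-based table, 4.46 after rescaling to nuclear protein-coding genes and 3.26 with a pseudocount of 0.1. For mural members, 2.81 became 3.06, 3.83 and 2.60. Leaving out each mouse gave 3.30 to 3.48 and 2.78 to 2.83. The median ratio of endothelial members, 0.010, was -0.025 with DESeq2 size factors (1 and 1, hence unscaled counts), 0.070 with library totals and 0.41 with spike-in totals, and that of mural members, 0.19, was 0.25 and 0.59 with the last pair. The 2 members past the threshold became 13 with spike-in totals, 0 at a mean count of 500 (where 17 members were left) and 0 at a ratio over 1. The 15 members with intervals that leave out 0 became 28 with spike-in totals. Of 15 gene pairs, 6 to 8 had the first gene higher when a mouse was left out. Settings for single members and isoforms were chosen after seeing the data. Of the leading isoform shares of the 31 members with several transcripts, 20 moved by more than the spread between mice in the read-based table. No paired analysis was possible because there was 1 group. With 2 mice, no difference between animals can be separated from one between library preparations.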

Other observations

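Genes below the count minimum were left out of the ratios above. In the Wnt list 4 genes fell below it, all of them transcription factors, and they were chosen after their values were seen. The counting intervals of 3 lay above 0. Foxq1 had 66 and 132 counts (log2 ratio 1.03, counting interval 0.60 to 1.48). Sox7, the remaining SoxF gene, had 32 and 54 counts (0.78, 0.13 to 1.47), and Tcf7, which also marks T cells, had 73 and 110 counts (0.62, 0.19 to 1.07). Read-based counts gave 0.97, 0.68 and 0.68 for these 3 genes. The fourth, Foxf2, had 97 and 101 counts (0.09, -0.32 to 0.51), an interval that included 0. The values rest on 1 library a mouse. Low-count genes of the other lists of related genes had intervals that included 0, except Ndufa4l2 of the pericyte list (-1.13, -2.18 to -0.21). Over all protein-coding genes, 3.51% passed a ratio of 0.5 upwards (485 of 13812) and 2.07% downwards (286) at a minimum mean count of 20. At the count minimum used above, these shares were 1.19% (140 of 11728) and 1.07% (125). The shares at 20 include those 11728 deeper genes, so they understate the shares among genes between the 2 minimums. The share of all low-count genes with an interval above 0 was not computed, so 3 of 4 has no background.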
